A study of Mus musculus with 12 samples.

Results

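Integrins are adhesion receptors, each made of an alpha and a beta chain from a separate gene, and 10 of these chain genes that T cells use for homing and retention in tissues are described here. They are Itga4, Itgb7, Itgae, Itgb1, Itga1, Itga2, Itgav, Itgb3, Itgal and Itgb2, chosen by gene symbol, and all 10 were found among the 13948 genes of the table for co-cultured cells and the 35556 genes of the table for restimulated cells. RNA of living cells sorted for CD45.2+ gave 12 libraries, with 3 for each of the 4 groups. All groups were OT-I CD8+ T cells, which carry a transgenic T cell receptor for a peptide of chicken ovalbumin. They came from spleen, were expanded with antibodies to CD3e and CD28 plus IL-2, were kept in culture for 5 days, and then spent 72 h at 1% oxygen with ovalbumin-expressing GL261, a mouse glioma line. ATRA cells had received all-trans retinoic acid, a vitamin A metabolite, at 5 ng/mL during expansion only, and CTRL cells an equal volume of DMSO. Restimulated ATRA and CTRL cells were exposed to anti-CD3e antibody for 24 h more before sorting, while co-cultured ATRA and CTRL cells were sorted straight after the co-culture. The source is given only as primary immune cells, and neither a strain beyond OT-I nor an age of the mice is given in the sources used here.

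In T cells, the beta7 chain pairs with alpha4 to bind MAdCAM-1 on gut venules and with alphaE to bind E-cadherin on epithelium, and retinoic acid is known to raise alpha4beta7 during T cell activation. The beta1 chain pairs with alpha4 to bind VCAM-1, and with alpha1 or alpha2 to bind collagens. AlphaV with beta3 or other beta chains binds vitronectin, osteopontin and related matrix proteins, and alphaL with beta2 forms LFA-1, which binds ICAM-1 at the T cell synapse. Pairing at the surface depends on protein, so the RNA levels below describe chains and not assembled receptors.

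Library totals were 23558244 to 26111497 counts after co-culture and 16286775 to 20114121 after restimulation. In each state, libraries of ATRA and CTRL cells with the same replicate number share a batch, and the states come from different batch sets, so state and batch set cannot be told apart. Nothing in the labels tells if replicate libraries stem from different animals or cultures; the p-values therefore reflect variation among these libraries alone. Co-cultured ATRA replicate 3 stood apart from the others of its group, with correlations of log2 CPM across genes of 0.958 and 0.970, against 0.995 between replicates 1 and 2. Co-cultured CTRL replicate 1 stood apart less, at 0.986 and 0.988, against 0.997 between replicates 2 and 3. Where leaving out these libraries moved a chain's value by over 1.5 times or changed its call, both values are given.

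CD8 T cell markers were high in every library. Their summed level was 2288 to 2824 CPM in ATRA cells and 1977 to 2750 CPM in CTRL cells after co-culture, and 2354 to 2389 CPM in ATRA cells and 1850 to 2199 CPM in CTRL cells after restimulation. Here CPM are counts scaled to the library total with TMM factors. Markers of other cells were lower by far, but several of the lists moved with treatment. Of 12 glioma-like markers, 6 were in the co-culture table and 12 in the other. They summed to 33.9 to 62.6 CPM in ATRA cells and 97.7 to 123 CPM in CTRL cells after co-culture, and to 85.5 to 93.1 CPM in ATRA cells and 75.8 to 78.5 CPM in CTRL cells after restimulation. Most of the sum was Axl, at 46.5 ± 14.2 CPM in ATRA cells and 106 ± 13.5 CPM in CTRL cells after co-culture, and 78.0 ± 3.21 CPM in ATRA cells and 72.7 ± 2.40 CPM in CTRL cells after restimulation. In restimulated cells Gfap and Olig2 were at 0 in both groups, Sox9 was at 8.02 ± 0.864 CPM in ATRA cells and 0 in CTRL cells, and Pdgfra at 0.681 ± 0.371 CPM in ATRA cells and 0 in CTRL cells. These 4 glial markers were not in the co-culture table, in which every gene had at least 10 counts in total, so no co-culture level is given. The dendritic cell markers (5 of 8 after co-culture, 8 of 8 after restimulation) summed to 105 to 205 CPM in ATRA cells and 59.7 to 66.7 CPM in CTRL cells after co-culture, and to 30.9 to 31.6 CPM in ATRA cells and 48.9 to 55.7 CPM in CTRL cells after restimulation, with Siglech at 0 in both restimulated groups. After co-culture H2-Ab1 carried most of that sum, at 133 ± 56.5 CPM in ATRA cells and 26.9 ± 3.17 CPM in CTRL cells. Zbtb46 and Cd74 had the opposite order, at 1.58 ± 0.560 and 9.80 ± 3.60 CPM in ATRA cells and 10.3 ± 2.37 and 24.1 ± 4.75 CPM in CTRL cells. The mast cell markers (3 of 6 and 6 of 6) summed to 13.1 to 46.9 CPM in ATRA cells and 1.84 to 4.57 CPM in CTRL cells after co-culture, with Kit, also a progenitor gene, at 31.5 ± 17.9 CPM in ATRA cells and 2.51 ± 1.73 CPM in CTRL cells, and to 14.2 to 16.9 CPM in ATRA cells and 3.76 to 25.0 CPM in CTRL cells after restimulation. In restimulated ATRA cells Cpa3, Fcer1a and Mcpt8 were at 9.86 ± 1.59, 2.04 ± 1.01 and 2.02 ± 0.587 CPM. In restimulated CTRL cells they were lower, at 2.72 ± 1.48, 0.226 ± 0.0496 and 0.911 ± 0.402 CPM. Kit and Tpsb2 had the opposite order of means, with Kit at 1.62 ± 0.270 CPM in restimulated ATRA cells and 7.09 ± 10.5 CPM in restimulated CTRL cells. Mcpt4 was at 0 in both restimulated groups. NK cell markers summed to 0.734 to 2.06 CPM in ATRA cells and 8.71 to 12.2 CPM in CTRL cells after co-culture, and to 2.77 to 6.02 CPM in ATRA cells and 3.92 to 4.88 CPM in CTRL cells after restimulation. CD4 T cell markers summed to 74.4 to 77.6 CPM in ATRA cells and 40.7 to 46.5 CPM in CTRL cells after co-culture, and to 23.7 to 26.5 CPM in ATRA cells and 19.2 to 25.0 CPM in CTRL cells after restimulation. Zbtb7b carried most of the co-culture sum, at 73.9 ± 1.64 CPM in ATRA cells and 41.3 ± 2.34 CPM in CTRL cells. There Cd4, Cd40lg and Foxp3 were at 1.00 ± 0.268, 0.880 ± 0.484 and 0.282 ± 0.230 CPM in ATRA cells. In co-cultured CTRL cells they were at 0.433 ± 0.303, 0.911 ± 0.268 and 1.16 ± 0.365 CPM. B cell markers summed to 4.87 to 10.4 CPM in ATRA cells and 7.19 to 16.6 CPM in CTRL cells after co-culture, and to 13.7 to 14.1 CPM in ATRA cells and 4.15 to 5.27 CPM in CTRL cells after restimulation. Monocyte and macrophage markers summed to 17.4 to 23.3 CPM in ATRA cells and 12.2 to 13.2 CPM in CTRL cells after co-culture, and to 23.3 to 24.0 CPM in ATRA cells and 11.2 to 16.7 CPM in CTRL cells after restimulation, with Csf1r at 0 in both restimulated groups. The part of these cells in the integrin results was not tested.

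Itga4 and Itgb7, the chains of the gut homing receptor, rose together in ATRA cells after co-culture but not after restimulation, so their promoters are shown. The windows hold the 250 bases before the annotated start of each gene, from RefSeq on build GRCm38.p6, at chr2:79255176-79255425 on the plus strand for Itga4 and chr15:102231936-102232185 on the minus strand for Itgb7. Each is written 5′ to 3′ along its gene, with motif matches in capitals.
Itga4: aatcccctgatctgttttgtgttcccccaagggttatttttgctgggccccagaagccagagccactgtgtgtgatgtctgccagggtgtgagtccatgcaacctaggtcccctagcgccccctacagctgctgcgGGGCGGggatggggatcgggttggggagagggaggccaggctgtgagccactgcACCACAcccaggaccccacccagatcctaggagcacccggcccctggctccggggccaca
Itgb7: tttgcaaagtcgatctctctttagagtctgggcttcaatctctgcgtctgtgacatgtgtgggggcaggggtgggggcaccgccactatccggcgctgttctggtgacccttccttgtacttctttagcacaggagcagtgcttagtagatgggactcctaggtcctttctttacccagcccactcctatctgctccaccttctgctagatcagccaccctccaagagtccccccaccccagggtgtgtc
Searched on both strands were AGGTCA, which reads as TGACCT on the other strand, a core motif of retinoic acid receptors, ACCACA, with the reverse TGTGGT, a RUNX motif, and GGGCGG, with the reverse CCGCCC, a GC box bound by SP and KLF factors. Of 32851 mouse promoter windows of this length, 14.0% held the retinoic acid receptor motif, 14.0% the RUNX motif and 32.7% the GC box. The Itga4 window held 1 GC box 114 bases and 1 RUNX motif 60 bases before the start. None of the 3 motifs was in the Itgb7 window. Of the 10 chains, 6 had an entry, and the only other match was 1 GC box in the Itgb1 window, 151 bases before the start.

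After co-culture, the chains for gut homing and the alpha chains for epithelial retention and collagen binding were higher in ATRA cells. Itgb1, the beta chain of the collagen receptors, was lower, as was Itgal. Itga4, Itgb7, Itgae, Itga1 and Itga2 rose, Itgb1 and Itgal fell, and Itgav, Itgb2 and Itgb3 did not pass the test. Thus 5 of the 10 chains were called higher and 2 lower at an adjusted p under 0.05. Of the 12111 genes tested, 33.6% were called, 18.1% higher and 15.5% lower. The median log2 fold change was 1.48 over the 10 chains and 0.01 over all genes. All tests across genes are edgeR quasi-likelihood tests with Benjamini-Hochberg adjustment over all genes tested. With co-cultured ATRA replicate 3 and CTRL replicate 1 both left out, a choice made after the data were seen, 5 chains were higher and 3 lower, where 65.1% of all genes were called. Without co-cultured CTRL replicate 3, 4 of the 10 were called, as were 1613 of all 12377 genes tested.

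After restimulation, a different mixture of chains was higher in ATRA cells, and Itga4 had turned to the lower side. Itga2, Itgav, Itgb3, Itgae and Itgb2 rose, Itga4 and Itgb1 fell, and Itgb7, Itga1 and Itgal did not pass the test. Again 5 of 10 chains were higher and 2 lower, where 31.8% of all genes were called higher and 30.8% lower. In total 62.6% of the 12783 genes tested were called in this comparison, and the share of chains called, 7 of 10, lies near that. The median log2 fold change was 0.50 over the chains and 0.02 over all genes. The libraries of ATRA and CTRL cells did not overlap for 7 of 10 chains after co-culture and 7 of 10 after restimulation, against 57.0% and 68.8% of all genes tested.

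**Figure D1:**
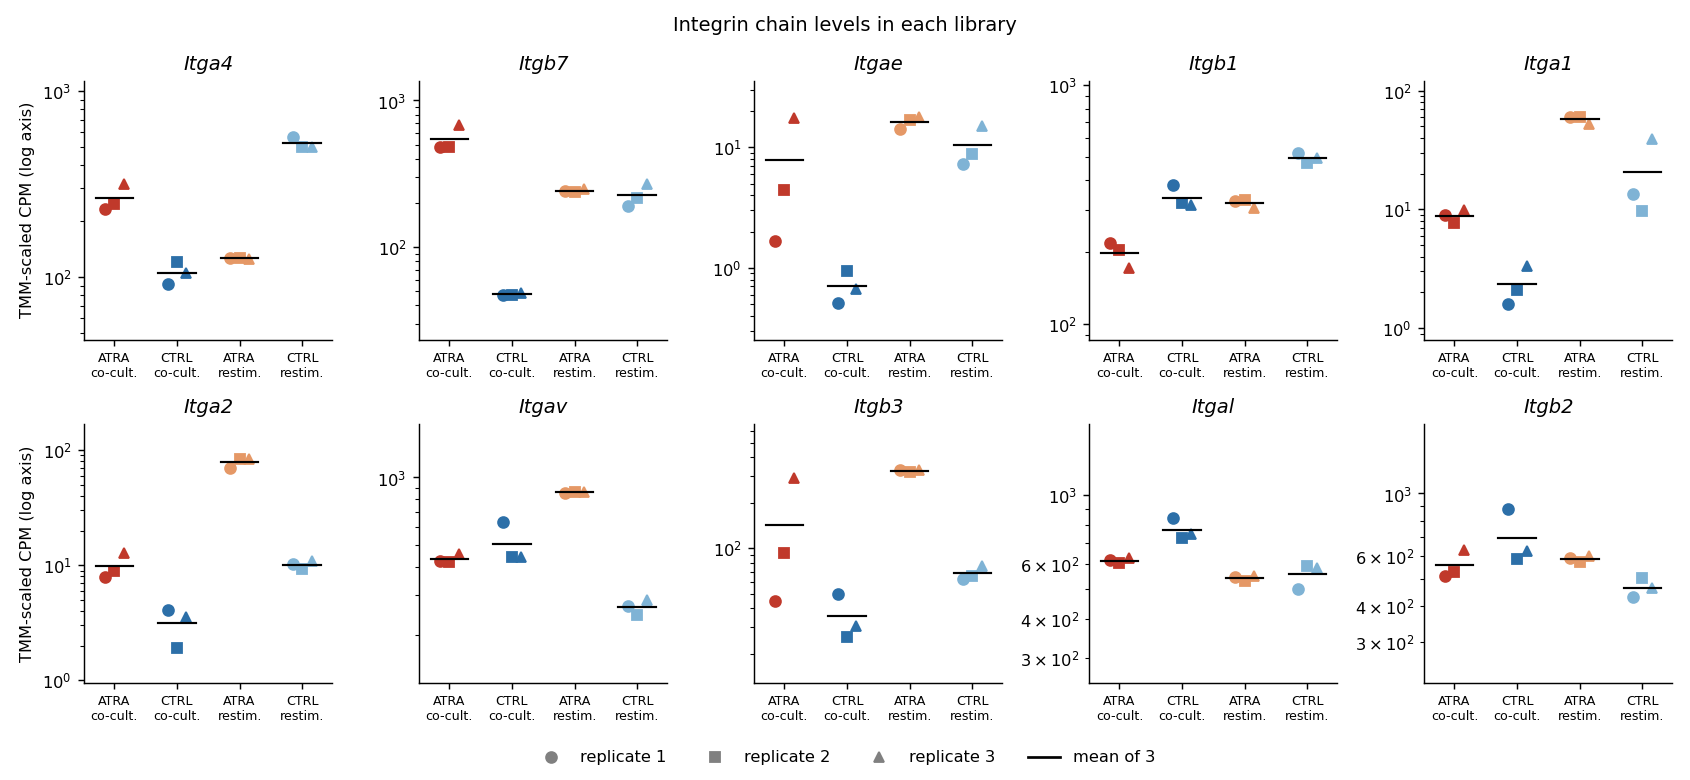
Level of each integrin chain in TMM-scaled CPM (log axis) in every library, by group, with replicate number as symbol and the mean of 3 as a line. Itga4 is highest in restimulated CTRL cells (501 to 566 CPM) and Itgb7 in co-cultured ATRA cells (479 to 678 CPM), while Itgae and Itgb3 spread widely among the co-cultured ATRA libraries.

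Itgb7, which encodes the beta7 chain, was far higher in ATRA cells after co-culture. It stood at 482, 479 and 678 CPM in ATRA libraries and 46.8, 47.2 and 48.8 CPM in CTRL libraries. Every ATRA library lay far above every CTRL library, and the CTRL libraries were close to each other. The level was 11.5-fold higher in ATRA cells (log2 fold change 3.52, SE 0.17, adjusted p = 0.000181), and the log2 difference within the 3 shared batches was 3.36, 3.34 and 3.80. In these bulk samples, fewer cells that express a gene and less RNA per cell cannot be told apart. After restimulation Itgb7 was at 240.3, 236 and 247 CPM in ATRA libraries and 190.2, 216 and 271 CPM in CTRL libraries. The groups overlapped, and the log2 fold change was 0.09 (95% interval -0.16 to 0.35, adjusted p = 0.490). Leaving out CTRL replicate 3 made it 0.24 with an adjusted p of 0.0134, and leaving out CTRL replicate 1 turned it to -0.02, so this value rests on single CTRL libraries. The ATRA effect was smaller after restimulation than after co-culture by 3.43 on the log2 scale (interaction -3.43, SE 0.22, adjusted p = 2.71e-07).

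Itga4, the alpha4 chain shared by the gut receptor and the VCAM-1 receptor, was at 233, 247 and 316 CPM in ATRA libraries and 92.4, 121 and 105 CPM in CTRL libraries after co-culture. All 3 ATRA libraries were above all 3 CTRL libraries. The difference was 2.51-fold (log2 fold change 1.33, SE 0.16, adjusted p = 0.00242), with 1.33, 1.04 and 1.60 within the shared batches. After restimulation Itga4 was at 127, 127 and 126 CPM in ATRA libraries and 566, 501 and 501 CPM in CTRL libraries. The order of the groups was reversed, and the ATRA libraries were nearly equal. Itga4 was 4.13-fold lower in restimulated ATRA cells (log2 fold change -2.05, SE 0.07, adjusted p = 3.29e-10), with -2.15, -1.98 and -1.99 within the batches. The interaction was -3.38 (SE 0.19, adjusted p = 9.52e-08), close in size to that of Itgb7. Among the chains called in both states, Itga4 turned direction, while Itgae, Itga2 and Itgb1 kept it. The share of all genes that turned was not computed.

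Itgae encodes alphaE (CD103), the beta7 partner that binds E-cadherin. It was low throughout, at 1.68, 4.42 and 17.4 CPM in ATRA libraries and 0.508, 0.935 and 0.661 CPM in CTRL libraries after co-culture, which corresponds to 43, 105 and 404 counts in ATRA libraries and 13, 25 and 18 counts in CTRL libraries. All ATRA libraries were above all CTRL libraries, but replicate 3 was far above its own group. The log2 fold change was 3.47 (SE 0.89, adjusted p = 0.0264) with all libraries, 2.10 (adjusted p = 0.0132) without ATRA replicate 3, and 1.93 (adjusted p = 0.00353) with CTRL replicate 1 left out as well. Without any single CTRL library the adjusted p was 0.0810 to 0.0969. After restimulation Itgae was at 14.2, 17.0 and 17.8 CPM in ATRA libraries and 7.24, 8.86 and 15.0 CPM in CTRL libraries. CTRL replicate 3 reached into the ATRA range. The log2 fold change was 0.65 (SE 0.24, adjusted p = 0.0381), and the call was lost without CTRL replicate 1 or 2 or without ATRA replicate 2 or 3 (adjusted p 0.0969 to 0.130), while without CTRL replicate 3 it was 1.01 (adjusted p = 0.000454). The interaction of -2.83 (SE 0.95, adjusted p = 0.0277) was -1.44 (adjusted p = 0.0405) without co-cultured ATRA replicate 3 and -1.26 (adjusted p = 0.0995) with both libraries that stand apart left out. The call was also lost in 6 of the 12 fits that left out a single library (adjusted p 0.0540 to 0.0637), namely co-cultured CTRL replicate 1 or 3, restimulated CTRL replicate 3, or any restimulated ATRA library.

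Itgb1, the beta1 chain that alpha4, alpha1 and alpha2 can all pair with, was lower in ATRA cells in both states. After co-culture it was at 219, 203 and 172 CPM in ATRA libraries and 381, 320.3 and 315 CPM in CTRL libraries, and after restimulation at 327, 332 and 307 CPM in ATRA libraries and 521, 472 and 494 CPM in CTRL libraries. No ATRA library reached the CTRL range in either state. The log2 fold change was -0.77 (SE 0.13, adjusted p = 0.00730) after co-culture and -0.62 (SE 0.06, adjusted p = 3.64e-06) after restimulation. The interaction was 0.15 (95% interval -0.16 to 0.46, adjusted p = 0.405).

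**Figure D2:**
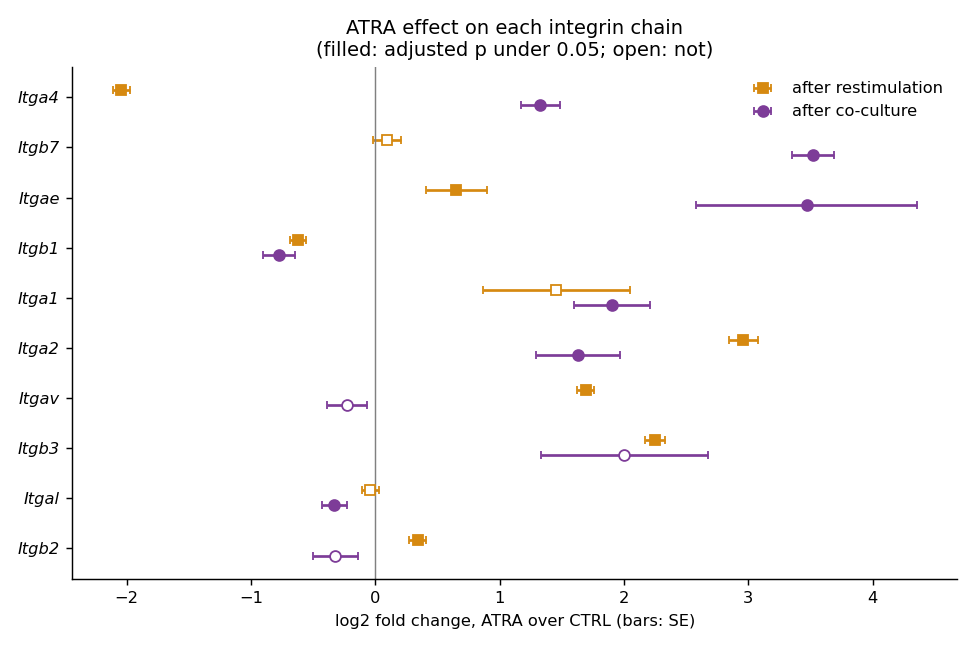
Log2 fold change of ATRA over CTRL cells for each chain, with SE as bars, after restimulation (squares) and after co-culture (circles), filled where the adjusted p was under 0.05. Itga4 lies at -2.05 after restimulation and 1.33 after co-culture, and Itgb7 at 0.09 and 3.52, while Itgb1 is below 0 in both states.

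Because alpha4 and beta7 have alternative partners, count ratios of chains were compared within each library. Such a ratio is free of library scaling and shows only that the chains changed unequally. Itgb7 over Itgb1, the beta chains that compete for alpha4, was 2.20, 2.35 and 3.95 in ATRA libraries and 0.123, 0.148 and 0.155 in CTRL libraries after co-culture. Counts of Itgb7 thus exceeded those of Itgb1 in each co-cultured ATRA library and in no co-cultured CTRL library, with no correction for transcript length. The difference in log2 ratio was 4.28, a 19.4-fold change. After restimulation the ratio was 0.735, 0.711 and 0.805 in ATRA libraries and 0.365, 0.459 and 0.549 in CTRL libraries, a log2 difference of 0.73. In both states the 3 ATRA libraries were above the 3 CTRL libraries, which gives the smallest two-sided exact permutation p that 3 against 3 libraries allow, 0.1 (0.133 after adjustment over the 8 ratio comparisons).

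Itga4 over Itgb1 had a log2 ratio of 0.42 ± 0.41 in ATRA cells and -1.68 ± 0.33 in CTRL cells after co-culture (SD, n = 3 each), a difference of 2.10 (exact permutation p = 0.1). After restimulation it was -1.35 ± 0.05 in ATRA cells and 0.08 ± 0.05 in CTRL cells, a difference of -1.42 (exact permutation p = 0.1). The groups were apart in both states, in opposite order. Itga4 over Itgae, the alpha chains that share beta7, was lower in ATRA cells by 2.76 on the log2 scale after restimulation, at 2.96 ± 0.18 in ATRA cells and 5.72 ± 0.62 in CTRL cells (exact permutation p = 0.1). After co-culture it was 5.70 ± 1.47 in ATRA cells and 7.27 ± 0.25 in CTRL cells, with overlap of the groups (difference -1.57, exact permutation p = 0.2).

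**Figure D3:**
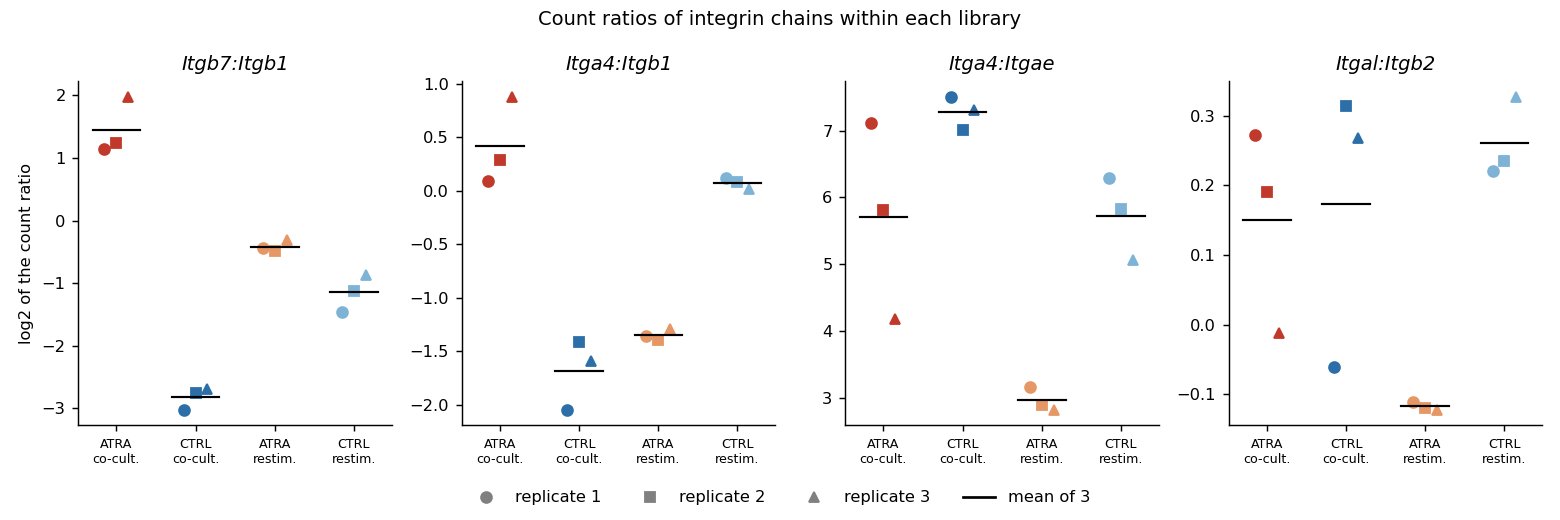
Log2 count ratio of a pair of chains within each library, by group, with replicate number as symbol and the mean of 3 as a line. Itgb7:Itgb1 is highest in co-cultured ATRA cells (1.14 to 1.98) and lowest in co-cultured CTRL cells (-3.02 to -2.69), and Itga4:Itgb1 changes the order of ATRA and CTRL cells between the states.

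The alpha chains of the collagen receptors, alpha1 (Itga1, CD49a) and alpha2 (Itga2, CD49b), were higher in ATRA than in CTRL cells after co-culture. After restimulation only the Itga2 difference passed the test. Itga2 was at 7.91, 8.88 and 12.7 CPM in ATRA libraries and 4.10, 1.91 and 3.53 CPM in CTRL libraries after co-culture. The groups did not overlap, and the log2 fold change was 1.63 (SE 0.34, adjusted p = 0.0136), with an adjusted p of 0.0538 without CTRL replicate 3. After restimulation Itga2 was at 69.3, 84.0 and 83.8 CPM in ATRA libraries and 10.2, 9.35 and 10.9 CPM in CTRL libraries. Each ATRA library was several times above each CTRL library, and the 7.78-fold difference (log2 fold change 2.96, SE 0.12, adjusted p = 1.27e-09) was the largest among the 10 chains in that state. The effect was larger after restimulation than after co-culture (interaction 1.32, SE 0.34, adjusted p = 0.00687).

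Itga1, a chain of resident memory T cells in tissue, was at 8.97, 7.61 and 9.80 CPM in ATRA libraries and 1.60, 2.09 and 3.34 CPM in CTRL libraries after co-culture. The groups were well apart (log2 fold change 1.90, SE 0.30, adjusted p = 0.00603). After restimulation it was at 59.9, 60.1 and 52.1 CPM in ATRA libraries and 13.5, 9.72 and 39.2 CPM in CTRL libraries. ATRA libraries were above all CTRL libraries, but CTRL replicate 3 lay far above the other two. The log2 fold change of 1.46 did not pass the test (95% interval -0.13 to 3.05, adjusted p = 0.0954). It was 2.29 (adjusted p = 3.20e-07) without that library, and DESeq2 gave an adjusted p of 0.0261 with it. The interaction was -0.45 (95% interval -1.78 to 0.89, adjusted p = 0.573) and 0.40 without that library.

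Itgav and Itgb3, the chains of alphaVbeta3, which binds osteopontin and vitronectin, were both higher in ATRA cells after restimulation. Itgav was at 856, 859 and 862 CPM in ATRA libraries and 268, 245 and 285 CPM in CTRL libraries. The ATRA libraries were nearly equal and 3.23-fold above CTRL cells (log2 fold change 1.69, SE 0.07, adjusted p = 1.07e-09). After co-culture Itgav was at 424, 421 and 457 CPM in ATRA libraries and 635, 443 and 445 CPM in CTRL libraries. The groups overlapped, and the log2 fold change was -0.23 (95% interval -0.61 to 0.16, adjusted p = 0.300), with -0.58, -0.07 and 0.04 within the batches and -0.03 (adjusted p = 0.815) without CTRL replicate 1. The interaction was 1.91 (SE 0.18, adjusted p = 5.71e-06).

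Itgb3 was at 330.3, 319 and 329 CPM in ATRA libraries and 63.0, 65.8 and 76.7 CPM in CTRL libraries after restimulation. The groups were 4.76-fold apart (log2 fold change 2.25, SE 0.08, adjusted p = 5.27e-10). After co-culture it was at 44.8, 92.4 and 289 CPM in ATRA libraries and 50.2, 25.8 and 30.5 CPM in CTRL libraries. ATRA replicate 1 lay within the CTRL range and replicate 3 far above it, and within the shared batches the log2 difference was -0.16, 1.84 and 3.24. The log2 fold change of 2.00 did not pass the test (95% interval 0.40 to 3.61, adjusted p = 0.0594). It was 0.95 (adjusted p = 0.123) without ATRA replicate 3, 2.42 (adjusted p = 0.0199) without ATRA replicate 1 and 1.29 (adjusted p = 0.170) with both libraries that stand apart left out, and DESeq2 called it with all libraries (adjusted p = 0.0371). No difference between the states could be called (interaction 0.23, 95% interval -1.33 to 1.80, adjusted p = 0.811), but without co-cultured ATRA replicate 3 the interaction was 1.31 (adjusted p = 0.0395), and with both libraries that stand apart left out 0.98 (adjusted p = 0.0709). Beta3 is also a chain of platelets, and of their other markers Pf4, Gp9, Gp1bb and Gp6 were at 0 in both restimulated groups. Ppbp was at 0 to 0.112 CPM in restimulated ATRA cells and at 0 in restimulated CTRL cells. Itga2b, the platelet partner of beta3, was at 4.74 ± 1.21 CPM in restimulated ATRA cells, and the 6 platelet markers together summed to 3.81 to 6.07 CPM in ATRA cells and 0.393 to 0.856 CPM in CTRL cells. After co-culture Itga2b was at 1.97 ± 0.464 CPM in ATRA cells and 0.917 ± 0.160 CPM in CTRL cells.

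The LFA-1 chains Itgal and Itgb2 differed little between ATRA and CTRL cells in both states, with log2 fold changes of -0.33 to 0.34. Itgal, the alphaL chain, was at 617, 605 and 626 CPM in ATRA libraries and 841, 729 and 752 CPM in CTRL libraries after co-culture. The groups did not overlap, but the difference was small (log2 fold change -0.33, SE 0.10, adjusted p = 0.0432). The call was lost with the shared batch as a replicate block (adjusted p = 0.131) and in 5 of the 6 fits that left out a library (adjusted p 0.0685 to 0.140). With both libraries that stand apart left out the value was -0.27 (adjusted p = 2.26e-05). After restimulation Itgal was at 547, 529 and 551 CPM in ATRA libraries and 500.5, 589.8 and 582 CPM in CTRL libraries, with overlap (log2 fold change -0.04, 95% interval -0.19 to 0.11, adjusted p = 0.642).

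Itgb2, the beta2 chain, was at 591, 575 and 599 CPM in ATRA libraries and 429, 501 and 464 CPM in CTRL libraries after restimulation. All ATRA libraries were above all CTRL libraries (log2 fold change 0.34, SE 0.07, adjusted p = 0.000736). After co-culture it was at 511, 529.9 and 631 CPM in ATRA libraries and 878, 586 and 624 CPM in CTRL libraries. The ranges overlapped (log2 fold change -0.32, 95% interval -0.75 to 0.11, adjusted p = 0.201), without CTRL replicate 1 it was -0.12 (adjusted p = 0.495), and with both libraries that stand apart left out it was -0.21 (adjusted p = 0.000612). The interaction was 0.65 (SE 0.20, adjusted p = 0.0180). The log2 ratio of Itgal over Itgb2 was -0.12 ± 0.01 in ATRA cells and 0.26 ± 0.06 in CTRL cells after restimulation (SD, n = 3 each), without overlap (exact permutation p = 0.1). After co-culture it was 0.15 ± 0.15 in ATRA cells and 0.17 ± 0.20 in CTRL cells (exact permutation p = 0.9).

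The question whether the ATRA effect differed between the states was tested as an interaction over all 12 libraries. The effect was lower after restimulation for Itga4, Itgb7 and Itgae and higher for Itga2, Itgav and Itgb2, so 6 of 10 chains were called, where 49.2% of the 12364 genes tested were (23.6% higher and 25.5% lower). For Itga1, Itgb1, Itgb3 and Itgal the difference did not pass the test. Itgal had an interaction of 0.29 (95% interval 0.02 to 0.55, adjusted p = 0.0722), with an adjusted p of 0.0424 in DESeq2. It was 0.31 (adjusted p = 0.0313) without co-cultured ATRA replicate 3 and 0.24 (adjusted p = 0.0336) with both libraries that stand apart left out.

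The same 12 libraries were used to set restimulated cells against co-cultured cells of the same treatment, where the state cannot be told apart from the batch set. In ATRA cells, Itga4 and Itgb7 were lower after restimulation, with log2 fold changes of -1.17 (SE 0.13, adjusted p = 1.01e-05) and -1.28 (SE 0.15, adjusted p = 1.72e-05). In CTRL cells both were higher after restimulation, by 2.21 (SE 0.13, adjusted p = 3.51e-07) and 2.15 (SE 0.16, adjusted p = 1.34e-06). Itgav also went opposite ways, at 0.88 (adjusted p = 8.68e-05) in ATRA cells and -1.03 (adjusted p = 9.47e-05) in CTRL cells. Itga1, Itga2 and Itgb1 were higher after restimulation in both treatments, with log2 fold changes of 2.60, 2.90 and 0.60 in ATRA cells and 3.05, 1.58 and 0.45 in CTRL cells. Itgal was lower in both, at -0.29 in ATRA cells and -0.57 in CTRL cells.

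Itgae was higher after restimulation in CTRL cells (log2 fold change 3.78, adjusted p = 0.00255), and its change of 0.94 in ATRA cells did not pass the test (95% interval -0.40 to 2.29, adjusted p = 0.203). Without co-cultured ATRA replicate 3 that change was 2.33 (adjusted p = 0.000221). With the replicate number as a block, which joins libraries of different batches, the change was 1.36 (adjusted p = 0.0450). Itgb2 was lower after restimulation in CTRL cells (-0.68, adjusted p = 0.00355) and at -0.03 in ATRA cells (95% interval -0.34 to 0.29, adjusted p = 0.889). Itgb3 did not pass the test in ATRA cells (1.08, 95% interval -0.03 to 2.19, adjusted p = 0.0829) or in CTRL cells (0.85, 95% interval -0.27 to 1.97, adjusted p = 0.228). Without co-cultured ATRA replicate 3 its change in ATRA cells was 2.16 (adjusted p = 0.000863), and with both libraries that stand apart left out its change in CTRL cells was 1.18 (adjusted p = 0.0152). In all, 4 chains were higher and 3 lower in ATRA cells, where 61.3% of genes were called (29.8% higher and 31.5% lower). In CTRL cells 6 were higher and 3 lower, where 32.5% of genes were called (15.9% higher and 16.6% lower). With both libraries that stand apart left out, 9 of 10 chains were called in ATRA cells and 10 of 10 in CTRL cells, where 69.3% and 46.5% of all genes were.

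Ordered by mean CPM over the 4 groups, a level set across separately scaled tables and so a description, Itga4 was highest in restimulated CTRL cells, then in co-cultured ATRA cells, restimulated ATRA cells and co-cultured CTRL cells, with no overlap between neighbours. Itgb7 was highest in co-cultured ATRA cells and lowest in co-cultured CTRL cells, and the restimulated groups between them overlapped. Itga1, Itga2, Itgae and Itgb3 all had their highest mean in restimulated ATRA cells and their lowest in co-cultured CTRL cells. Between these, co-cultured ATRA and restimulated CTRL cells overlapped in range for each of the 4 chains, and for Itgae the restimulated groups overlapped too. Itgav was highest in restimulated ATRA cells and lowest in restimulated CTRL cells, with the co-cultured groups overlapping between them. Itgb1 was highest in restimulated CTRL cells and lowest in co-cultured ATRA cells, and Itgal was highest in co-cultured CTRL cells. Itgb2 had its highest mean in co-cultured CTRL cells as well, but their range of 586 to 878 CPM overlapped with that of restimulated ATRA cells (575 to 599 CPM).

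Levels of different chains can be compared only per transcript length, as TPM, which were used for the restimulated cells. In ATRA cells Itgav was the most abundant at 294 ± 19.5 TPM (SD, n = 3), followed by Itgb2 at 262 ± 7.11 TPM. Itgb7 (181 ± 24.4 TPM), Itgal (161 ± 3.13 TPM) and Itgb1 (160.1 ± 14.0 TPM) overlapped with each other. Below them stood Itgb3 (67.5 ± 0.946 TPM), Itga4 (39.8 ± 1.96 TPM), Itga2 (19.0 ± 0.141 TPM), Itga1 (11.5 ± 1.76 TPM) and Itgae (4.69 ± 0.549 TPM), none overlapping with its neighbour. In CTRL cells Itgb1 led with 251 ± 20.3 TPM and Itgb2 followed with 216 ± 14.9 TPM. Itgal (162 ± 16.0 TPM), Itgb7 (158 ± 31.7 TPM) and Itga4 (155 ± 3.79 TPM) overlapped, so alpha4 and beta7 RNA stood at like levels there, while in ATRA cells Itgb7 was well above Itga4. Itgav was at 78.8 ± 5.79 TPM and Itgb3 at 13.9 ± 1.52 TPM in CTRL cells. Itga1 (4.13 ± 3.08 TPM), Itgae (2.91 ± 1.21 TPM) and Itga2 (2.08 ± 0.420 TPM) were the lowest in CTRL cells and overlapped.

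**Figure D4:**
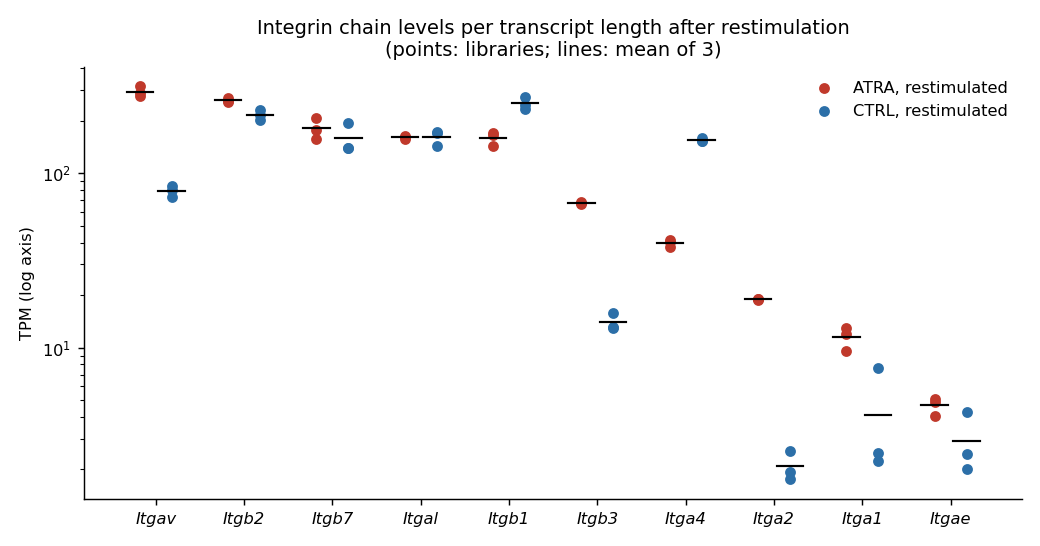
TPM (log axis) of each chain in restimulated ATRA and CTRL cells, with libraries as points and the mean of 3 as a line, ordered by the mean in ATRA cells. Itgav is first in ATRA cells at 294 TPM and stands at 78.8 TPM in CTRL cells, and Itga4 stands at 39.8 TPM in ATRA cells and 155 TPM in CTRL cells.

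The genes most like Itgb7 and Itga4 in pattern were those with the smallest root mean square difference of centred log2 CPM over the 12 libraries, among 9357 candidates. For Itga4 they were Arhgef39 (0.258), Pgm2l1 (0.261), Galnt12 (0.300) and Gatm (0.305). Each of these was at a higher mean in ATRA than in CTRL cells after co-culture and at a lower one after restimulation, as in Gatm, a creatine synthesis enzyme, with 38.2 CPM in ATRA cells and 18.9 CPM in CTRL cells after co-culture, and 16.6 CPM in ATRA cells and 57.4 CPM in CTRL cells after restimulation. For Itgb7 they were Abi3 (0.417), Rgs12 (0.424), Adgra3 (0.445) and Arhgef11 (0.468), a less close match. Rgs12, a regulator of G protein signalling, was at 13.1 CPM in ATRA cells and 2.15 CPM in CTRL cells after co-culture, and at 7.76 CPM in ATRA cells and 7.28 CPM in CTRL cells after restimulation.

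Of 16 other integrin chains, 10 were tested in each state. After co-culture 6 were higher and 1 lower in ATRA cells (median log2 fold change 1.15, against 0.01 over all genes), and after restimulation 6 were higher and 2 lower (median 1.08, against 0.02). Of all genes, 33.6% were called after co-culture and 62.6% after restimulation. Itgb5, another partner of alphaV, was at 11.0 ± 1.13 CPM in ATRA cells and 2.64 ± 0.723 CPM in CTRL cells after co-culture (log2 fold change 2.06, SE 0.24, adjusted p = 0.00222). In restimulated cells Itgb5 was at 1.47 ± 0.205 CPM in ATRA cells and 3.73 ± 0.134 CPM in CTRL cells (-1.34, SE 0.30, adjusted p = 0.00183). Itga6, a laminin-binding chain, was likewise higher after co-culture (0.72, adjusted p = 0.0145, lost without CTRL replicate 2 or 3 or ATRA replicate 2, at 0.0588 to 0.0711) and lower after restimulation (-1.36, adjusted p = 4.36e-06). Itga7, also a laminin-binding chain, was at 8.14 ± 6.30 CPM in ATRA cells and 0.112 ± 0.0619 CPM in CTRL cells after co-culture (adjusted p = 0.00332), and at 2.36 ± 0.264 CPM in ATRA cells and 0.231 ± 0.128 CPM in CTRL cells after restimulation (adjusted p = 9.91e-05). The CTRL levels lie near a floor of 3 counts, at most 0.184 CPM in any library, so no fold is given. Itga5, which binds fibronectin with beta1, was at 30.6 ± 3.92 CPM in ATRA cells and 8.39 ± 2.54 CPM in CTRL cells after restimulation (1.86, adjusted p = 8.52e-06). Its co-culture value was 0.06 on the same scale (adjusted p = 0.759).

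Among integrin ligands, 4 of 10 tested were higher and 2 lower in ATRA cells after co-culture (median log2 fold change 0.14), where 33.6% of all genes were called. After restimulation 6 of 12 were higher and 2 lower (median 0.56), a share called of 8 in 12 that lies near the 62.6% of all genes. With both libraries that stand apart left out, the co-culture count was 3 higher and 5 lower, where 65.1% of all genes were called. Spp1, which encodes the alphaV ligand osteopontin, was at 124 ± 60.9 CPM in ATRA cells and 807 ± 40.1 CPM in CTRL cells after co-culture (-2.70, SE 0.40, adjusted p = 0.00493). In restimulated cells Spp1 was at 1144 ± 39.9 CPM in ATRA cells and 193 ± 22.0 CPM in CTRL cells (2.56, SE 0.08, adjusted p = 2.49e-10), and the interaction was 5.27 (adjusted p = 2.60e-06). Cdh1, which encodes E-cadherin, the ligand of alphaEbeta7, was at 40.0 ± 24.7 CPM in ATRA cells and 0.828 ± 0.117 CPM in CTRL cells after co-culture (5.58, SE 0.53, adjusted p = 0.00118). After restimulation it was at 0.211 ± 0.0484 CPM in ATRA cells, near the floor, and 8.64 ± 10.1 CPM in CTRL cells (adjusted p = 0.0137), so no fold is given. Leaving out any single restimulated ATRA library ended that call (adjusted p 0.0622 to 0.0757). Thbs1, the matrix protein thrombospondin 1, was at 25.7 ± 1.34 CPM in ATRA cells and at 0 to 0.323 CPM in CTRL cells after restimulation (adjusted p = 3.80e-08), and no fold is given since the CTRL mean lies under the floor of 3 counts. Madcam1 and Vcam1, the ligands of the alpha4 integrins, were not tested in either state.

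A list of genes that act on integrin activation holds activators, such as talins, kindlins and Rap1 exchange factors, and inhibitors, such as Rasa3, Sipa1, Sharpin and Itgb1bp1, so its counts give no direction of activation. After co-culture 9 of 21 tested were higher and 2 lower in ATRA cells (median log2 fold change 0.33), and after restimulation 6 of 20 were higher and 11 lower (median -0.35), against 33.6% and 62.6% of all genes called in either direction. Of the 9 called in both states, 6 went opposite ways, and the share of all genes that did so was not computed. With both libraries that stand apart left out, 13 were higher and 3 lower after co-culture, where 65.1% of all genes were called. Rasgrp2, the exchange factor CalDAG-GEFI that activates Rap1, was at 54.0 ± 10.4 CPM in ATRA cells and 5.32 ± 1.64 CPM in CTRL cells after co-culture (3.34, SE 0.28, adjusted p = 0.000878). In restimulated cells Rasgrp2 was at 1.37 ± 0.522 CPM in ATRA cells and 31.7 ± 2.78 CPM in CTRL cells (-4.51, SE 0.23, adjusted p = 7.29e-09), and the interaction was -7.85 (adjusted p = 5.48e-08). Rasgrp1, a Ras exchange factor downstream of the T cell receptor, was higher after co-culture (1.65, adjusted p = 0.000459) and lower after restimulation (-1.27, adjusted p = 0.000529). Rasa3, which inactivates Rap1, had the same order, at 1.06 (adjusted p = 0.00545) and -1.04 (adjusted p = 1.24e-05).

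Among genes of adhesion signalling and cytoskeletal links, 5 of 20 were higher and 5 lower in ATRA cells after co-culture (median log2 fold change -0.03), and 10 of 19 were higher and 5 lower after restimulation (median 0.48), against 33.6% and 62.6% of all genes called. Vcl, which encodes vinculin, a talin-binding protein of adhesion sites, was at 10.4 ± 1.70 CPM in ATRA cells and 56.3 ± 1.85 CPM in CTRL cells after co-culture (-2.44, SE 0.14, adjusted p = 0.000325). In restimulated cells Vcl was at 45.5 ± 1.98 CPM in ATRA cells and 26.7 ± 1.09 CPM in CTRL cells (0.77, SE 0.10, adjusted p = 2.42e-05). Ilk, integrin-linked kinase, was lower in both states (-0.86, adjusted p = 0.00137, and -0.56, adjusted p = 1.56e-05). Lims1, the adaptor PINCH1 that binds it, and Zyx, the adhesion protein zyxin, were higher after restimulation (1.18, adjusted p = 5.20e-08, and 1.10, adjusted p = 7.04e-08), and neither passed the test after co-culture (0.50, adjusted p = 0.132, and -0.38, adjusted p = 0.136).

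Among surface partners of integrins, 4 of 12 were higher and 2 lower after co-culture (median log2 fold change 0.18), and 8 of 13 were higher and 3 lower after restimulation (median 0.68), against 33.6% and 62.6% of all genes called. With both libraries that stand apart left out, 6 were higher and 5 lower after co-culture, where 65.1% of all genes were called. Slc3a2, the CD98 heavy chain that associates with beta integrin chains, was at 834 ± 25.8 CPM in ATRA cells and 176 ± 5.97 CPM in CTRL cells after restimulation (2.25, SE 0.06, adjusted p = 7.99e-11). Its co-culture value was -0.03 on the same scale (adjusted p = 0.903). The tetraspanin Cd37 was higher in both states (1.14, adjusted p = 0.000836, and 1.10, adjusted p = 0.00202), as was Bsg, which encodes basigin (1.02, adjusted p = 0.00447, and 0.41, adjusted p = 0.000178). Cd226, the activating receptor DNAM-1 that associates with LFA-1, was lower after restimulation (-1.67, adjusted p = 8.65e-09), and its rise after co-culture (0.85, adjusted p = 0.0323) was lost with the replicate block (adjusted p = 0.0612), and when CTRL replicate 2 or 3 or ATRA replicate 2 was omitted (0.0631 to 0.118).

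Of the regulators known for integrin genes, 8 of 23 were higher and 4 lower after co-culture (median log2 fold change 0.49), and 10 of 23 were higher and 6 lower after restimulation (median 0.14). The 12 and 16 genes called stand against 33.6% and 62.6% of all genes, and the restimulation share lies near that of all genes. Runx1, a RUNX family transcription factor, was at 38.6 ± 1.66 CPM in ATRA cells and 9.08 ± 1.22 CPM in CTRL cells after restimulation (2.08, SE 0.13, adjusted p = 4.05e-08). Its rise after co-culture (1.77, adjusted p = 0.0396) was 1.06 without ATRA replicate 3 and 0.98 (adjusted p = 0.113) with both libraries that stand apart left out. Omitting any single CTRL library, or ATRA replicate 2, ended the call as well (adjusted p 0.0724 to 0.131). Tgfbr1, the type I receptor for TGF-beta, which is known to induce Itgae, was higher after co-culture (1.35, adjusted p = 0.00117). After restimulation it was lower (-0.56, adjusted p = 0.0268), a call lost without CTRL replicate 1 or 3 or ATRA replicate 1 or 3 (adjusted p 0.0538 to 0.0973). Tbx21, which encodes T-bet, was at 46.8 ± 7.23 CPM in ATRA cells and 120.3 ± 6.53 CPM in CTRL cells after co-culture (-1.36, adjusted p = 0.00129). Restimulated cells gave -0.05 on the same scale (adjusted p = 0.638). Myb, a factor that drives Itga4 in other blood cell settings, was at 57.5 ± 2.37 CPM in ATRA cells and 199 ± 23.7 CPM in CTRL cells after restimulation (-1.79, SE 0.09, adjusted p = 8.73e-09). After co-culture it was at 226 ± 35.3 CPM in ATRA cells and 200.1 ± 7.63 CPM in CTRL cells (0.18, adjusted p = 0.318).

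**Figure D5:**
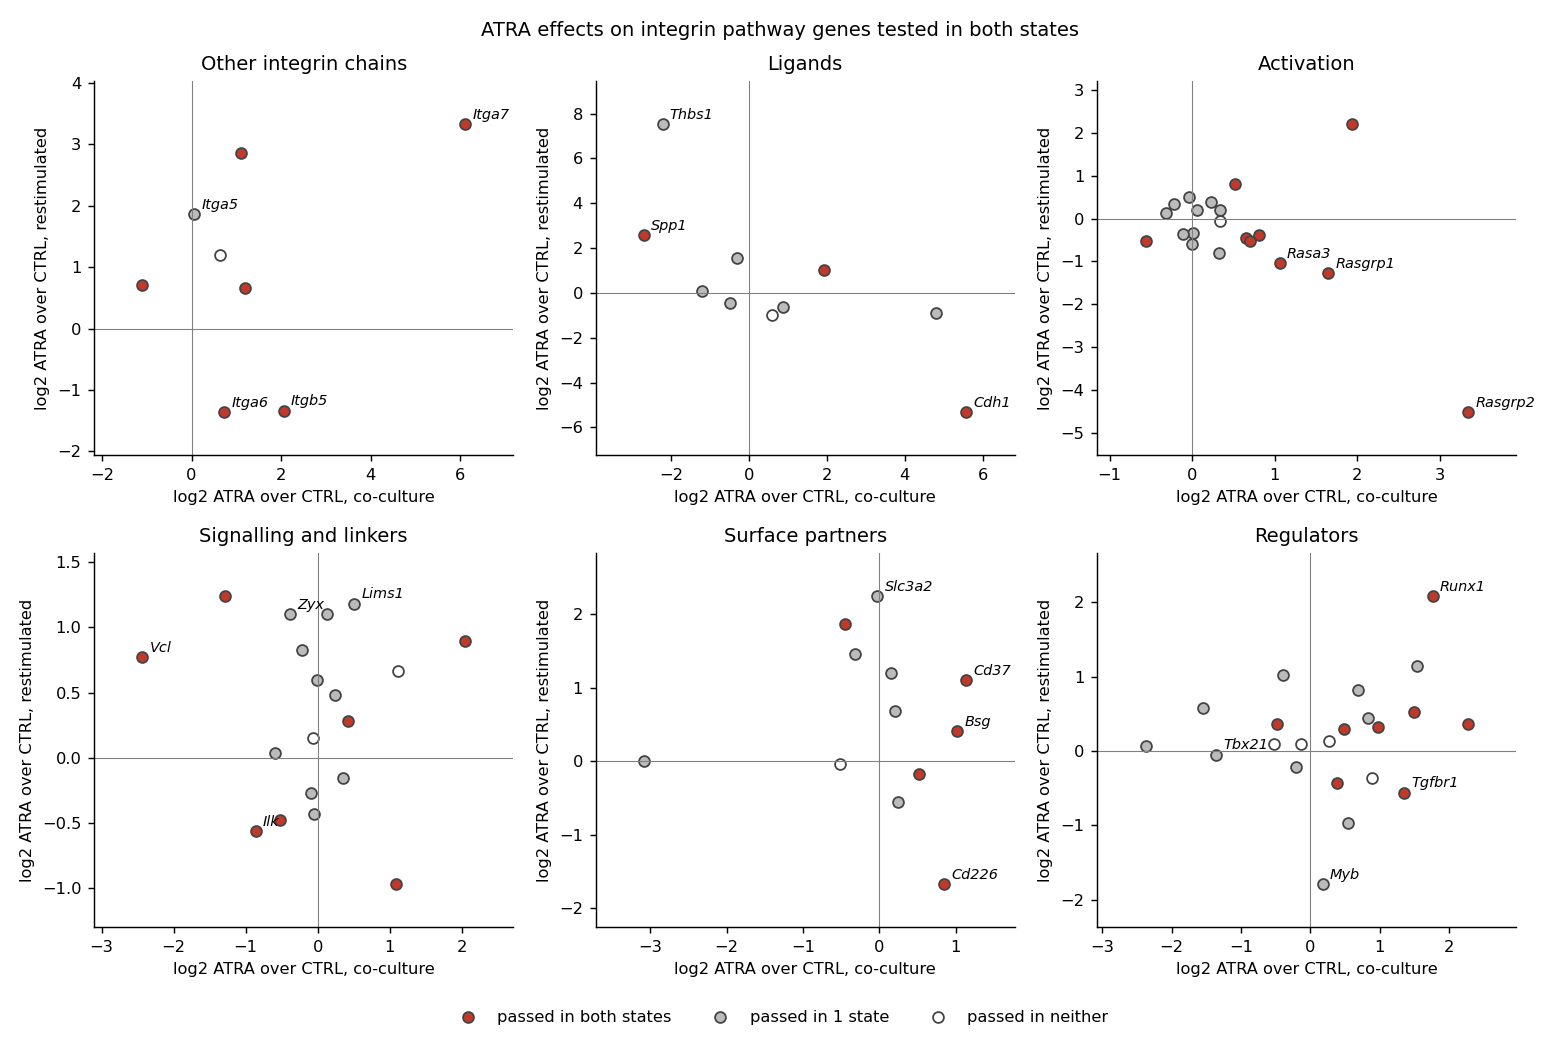
Log2 fold change of ATRA over CTRL cells after co-culture (x axis) and after restimulation (y axis) for pathway genes tested in both states, 1 panel per list, filled red where called in both states, grey in 1 and open in neither. Rasgrp2 (3.34 and -4.51) lies far to the lower right, and Spp1 (-2.70 and 2.56) to the upper left.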

How the data were processed

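RNA from 12 libraries was prepared with a kit that keeps strand, per the labels. The authors deposited whole-number counts per gene symbol in a table for each state and TPM values for the restimulated libraries. The tools named are cutadapt 5.0, STAR 2.7.11b, Salmon 1.10.3 and DESeq2 1.42.1, with build mm39, per the submitters' processing notes. What each tool did, how strand was set when counting, and which annotation served were not given in the sources used here, so reads of overlapping genes may be shared. Among restimulated cells 32 symbols occurred more than once, and the entry with the largest total was kept. Headings of the deposited TPM table show treatment but not the library, so its columns served as unnumbered replicates of their group.

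Counts were fitted with edgeR 4.0.16 in R 4.3.3 (TMM scaling, filterByExpr, robust quasi-likelihood fits, Benjamini-Hochberg adjustment, calls at an adjusted p under 0.05), after a test on simulated counts. ATRA effects used the 6 libraries of a state, and interactions and restimulation changes all 12 and the 13625 shared symbols. SEs come from the coefficient and its F statistic. A floor of 3 counts was at most 0.184 CPM and covers counting error only. Log2 count ratios were compared by exact two-sided permutation. Alternatives were DESeq2 1.42.0, RLE scaling, other low-count filters, the replicate block and leaving out each library.

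Because the labels state a shared batch, replicate numbers pair the libraries within a state, but not across states. Deviations of same-numbered libraries correlated at 0.09, -0.04 and 0.06 after co-culture and -0.03, -0.12 and 0.08 after restimulation. Members and lists were chosen with earlier results of these data known. Named genes were all members, the 2 called genes with the smallest p per pathway list and ATRA comparison, and the 4 genes most like Itgb7 and Itga4 with a mean of at least 5 CPM, predicted and clone-named genes left out. Regions before gene starts came from the RefSeq promoter table.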

Additional observations from a re-analysis of the deposited data

Results flagged for a closer look

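For 6 of the 10 chains the ATRA effect differed between the states by a test of the difference itself, the interaction in edgeR with Benjamini-Hochberg adjustment over all genes tested. The log2 effect after restimulation minus that after co-culture was -3.38 for Itga4 (adjusted p = 9.52e-08), -3.43 for Itgb7 (adjusted p = 2.71e-07) and -2.83 for Itgae (adjusted p = 0.0277). It was 1.32 for Itga2 (adjusted p = 0.00687), 1.91 for Itgav (adjusted p = 5.71e-06) and 0.65 for Itgb2 (adjusted p = 0.0180). Among all genes tested, 25.5% had a lower and 23.6% a higher effect after restimulation. The Itgae call was lost in 6 of the 12 fits that left out a single library (adjusted p 0.0540 to 0.0637) and with both co-cultured libraries that stand apart left out (-1.26, adjusted p = 0.0995). Its value was -1.44 (adjusted p = 0.0405) without co-cultured ATRA replicate 3, which held 17.4 CPM, with 1.68 and 4.42 CPM in the other libraries of its group. Groups of 3 libraries were not searched for outlying values.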

How the results depend on the processing

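Calls were lost both for Itgae, at a few CPM, and for Itgal, at 605 to 841 CPM after co-culture. The part of depth in these losses was not tested. Of the values of single chains, 724 kept direction and side of the threshold, 22 lost the call, 16 gained it and 8 changed sign. The number of chains called was 4 to 7 after co-culture when each library was left out in turn (7 with all, and 4 without CTRL replicate 3), 6 to 9 after restimulation, 5 to 8 for the interaction, 7 to 9 for restimulation in ATRA cells and 9 in CTRL cells. In the same fits, 1613 to 5617 of all genes were called after co-culture, 7247 to 8185 after restimulation and 5361 to 7046 for the interaction. For the restimulation changes, 6742 to 8217 were called in ATRA cells and 2817 to 5641 in CTRL cells. DESeq2 called 8, 8 and 7 chains for the co-culture effect, the restimulation effect and the interaction. After co-culture DESeq2 called 42.4% of all 12111 genes tested, against 33.6% in the main edgeR fit. The DESeq2 share was 61.7% after restimulation, against 62.6% in the main edgeR fit. For the interaction it was 51.9%, against 49.2%. With a block in the edgeR fit, 6, 7, 6, 8 and 9 chains were called in the 5 comparisons. Those block fits called 23.9% of all genes after co-culture, 60.6% after restimulation and 43.7% for the interaction. For the restimulation changes they called 59.8% in ATRA cells and 30.2% in CTRL cells. For the ATRA effects and the interaction the block was the shared batch. For the restimulation changes it was the replicate number alone, which joins libraries of different batches. The batch block ended the Itgal call after co-culture. The replicate number block gave a call for the Itgae restimulation change in ATRA cells (1.36, adjusted p = 0.0450). Over all genes, 4071 were called after co-culture, against 1772 when CTRL replicate 2 was left out, 1613 for CTRL replicate 3, 2226 for ATRA replicate 2, and 7980 without both libraries that stand apart.

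Values that changed sign were all uncalled with all libraries. The Itgb7 effect after restimulation was -0.0175 without CTRL replicate 1 and ranged up to 0.24 over such omissions. The Itgb3 interaction ranged from -0.20 to 1.31, at -0.0980 when co-cultured CTRL replicate 1 was omitted, -0.197 for ATRA replicate 1 and -0.00902 for ATRA replicate 2. The Itga1 interaction ranged from -0.79 to 0.40, at 0.400 without restimulated CTRL replicate 3, and the Itgb1 interaction was -0.0264 with both libraries that stand apart left out. The Itgb2 restimulation change in ATRA cells ranged from -0.0931 to 0.0851, its value without co-cultured ATRA replicate 3, and was 0.0813 with both left out. The difference in log2 Itgal:Itgb2 ratio after co-culture lay between -0.14 and 0.06, at 0.0468 when CTRL replicate 2 was omitted, 0.0239 for CTRL replicate 3 and 0.0577 for ATRA replicate 3. The cause of these changes was not tested.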
